A study of Mus musculus with 3 samples.

Results

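Blood vessel endothelial cells of the anorectal junction, the place where the colon meets the anus, were described in mice before, during and after colitis. They were the cells that the authors' deposited cell table named endothelial cells, and numbered 534 of 37080 cells. Of these, 100 came from day 0, 312 from day 7 and 122 from day 42. All mice were of the strain C57Bl/6, bought at an age of 6 weeks. The day 0 mice were unchallenged. The mice of days 7 and 42 drank water with 3% dextran sulfate sodium (DSS), which damages the bowel epithelium and so brings on colitis, for 6 days. By the histology given in the labels, day 7 was severe colitis and day 42 recovered tissue. Tissue was digested with trypsin and dead cells were removed before 10x 3′ libraries were made. Each day was 1 library of distal colon and anus pooled from 5 mice, so there were no replicates, no test between days was possible, and a difference between days cannot be told apart from a difference between libraries or pools. The intervals given below are exact 95% intervals and cover counting error only.

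Endothelial cells line every blood vessel. Those of arteries, capillaries and veins differ in the genes they use: capillary cells take up and carry lipids and other solutes, while cells of the small veins behind the capillaries are the main place where white blood cells leave the blood. To let them out, venous cells display selectins, on which leukocytes roll, and integrin ligands such as ICAM1 and VCAM1, on which they stop. In the gut, MAdCAM1 serves cells that carry the integrin α4β7, and in lymph nodes the tall venous cells of high endothelial venules carry sulfated ligands of L-selectin, among them GlyCAM1.

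Levels are given as counts of unique molecular identifiers (UMIs, each 1 captured molecule) summed over the endothelial cells of a library, scaled to counts per 1000000 UMIs of these cells (CPM). The endothelial cells held 421590, 2465781 and 372324 UMIs on days 0, 7 and 42, so that 1 UMI stood for 2.37, 0.406 and 2.69 CPM, and day 7 was the most precisely measured. Median UMIs per endothelial cell were 3603, 6752.5 and 2575.5, and 13, 33 and 6 of these cells had more than 20% mitochondrial UMIs. Over the whole series 139 cell barcodes occurred in more than 1 library. Of the endothelial cells 4 carried such a barcode, and no barcode belonged to an endothelial cell in more than 1 library.

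The label fitted the markers of blood endothelium. Pecam1, an adhesion molecule of endothelial junctions, stood at 1290.3 CPM on day 0, 1135 on day 7 and 1166 on day 42, and Plvap, which forms the diaphragms of fenestrae, at 1039, 1542 and 1413 CPM. At least 1 UMI of Pecam1, Plvap, Egfl7, Selp, Ackr1 or Cd93 was found in 100 of 100, 311 of 312 and 122 of 122 cells. In the cells named lymphatics Pecam1 stood at 607, 575 and 737 CPM and Plvap at 24.5, 202 and 149.8. Of 6 markers of lymphatic endothelium (Prox1, Lyve1, Pdpn, Flt4, Mmrn1 and Reln), the sum in the endothelial cells was 52.2, 51.9 and 29.5 CPM on days 0, 7 and 42, and Reln was at 0 on every day. The pericyte marker Rgs5 was at 0 on every day as well. RNA of other cell types was present and differed between days. The summed level of 6 neutrophil markers was 0, 2866 and 239 CPM on days 0, 7 and 42, against 12.4, 8583 and 705 in all other cells, and 10 cells held 90.4% of these UMIs at day 7. The 6 keratinocyte markers summed to 761, 2005 and 4281 CPM, and the 7 fibroblast markers to 119, 104 and 443. UMIs were also found for 10 pericyte and smooth muscle markers (45.1, 123 and 102 CPM), 8 colonocyte markers (434, 502 and 209), 4 haemoglobin genes (7.12, 298 and 2.69) and 2 platelet genes (4.74, 71.8 and 45.7). Macrophage markers reached at most 56.8 CPM, T cell markers 12.2 and glial markers 3.24. Their part in the results was not tested. Genes named below for the size of their difference were restricted to those at least as high in endothelial cells as in all other cells together, in the library where they were higher.

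Endothelial cells took the largest share of the library at day 7. On day 0 they made up 0.906% of all cells (0.738 to 1.1), on day 7 2.17% (1.94 to 2.42) and on day 42 1.05% (0.869 to 1.25). The intervals of days 0 and 42 overlapped and that of day 7 stood clear of both. Shares of a library add up to its total, and fibroblasts numbered 1436, 316 and 222 cells. The cells named lymphatics numbered 63, 190 and 84 of the 11037, 14376 and 11667 cells of the libraries. Their share too was largest at day 7, so this course was not particular to blood endothelial cells. Among endothelial, lymphatic and fibroblast cells combined, the endothelial share was 6.25% (5.12 to 7.55), 38.1% (34.8 to 41.6) and 28.5% (24.3 to 33.04). By this measure day 42 stood closer to day 7 than to day 0.

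**Figure D1:**
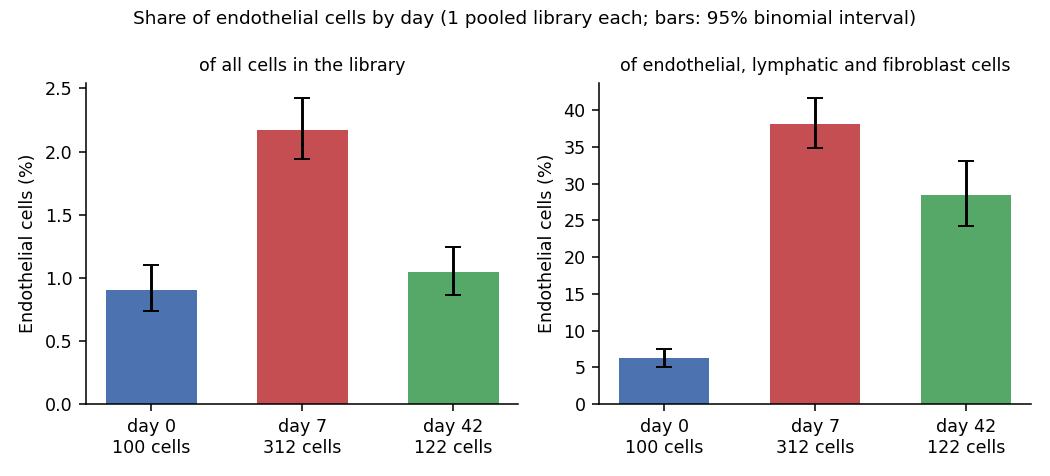
Endothelial cells as a percentage of all cells of the library (left) and of endothelial, lymphatic and fibroblast cells together (right), by day. Bars are the shares and lines their exact 95% binomial intervals. The day 7 bar is the highest in both panels, at 2.17% and 38.1%, and the day 42 bar is near that of day 0 on the left but not on the right.

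The genes that set these cells furthest above every other named cell type, averaged over the days, were a description of the annotation, since expression was used to make it. The first was Fabp4, a fatty acid carrier of small vessels, with 2099 CPM on day 0, 1105 on day 7 and 789.6 on day 42, against a highest mean of 7.23 CPM in any other cell type. Glycam1 and the selectins Selp and Sele followed. The vessel genes Flt1, Vwf, Sox17, Ackr1, Aplnr, Madcam1, Plvap and Esam were also among the first 20. Slco2a1, a prostaglandin transporter, was at 429, 1252 and 1088 CPM. Tmem252, Ehd3, Fam167b, Ubd, Rnd1, Vwa1 and Ebf3 made up the rest. Of the 20 genes, Glycam1 and Ubd had no UMI in endothelial cells at day 0.

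Days were compared as the log2 ratio of CPM with 10 CPM added to each, which understates the change of low genes. A gene was counted when it reached 20 CPM in either library and called past 2-fold at a log2 ratio of at least 1 or at most -1. In endothelial cells at day 7 against day 0, 6.16% of 7078 counted genes were higher past 2-fold and 7.19% lower. At day 42 against day 0 the shares were 6.52% and 7.44% of 7193 genes, and at day 42 against day 7 they were 3.39% and 3.37% of 7001. The medians over all counted genes were -0.06, -0.04 and 0.02. The comparisons share libraries, so they are not independent. Where a gene had 0 UMIs, the level this allows was taken as that of 3 counts, not as the upper bound of the exact interval. For 0 UMIs over all endothelial cells at day 0 these were 7.12 and 8.75 CPM. The counts of listed genes below are to be read against these shares.

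Venous genes were higher on both later days. Of 7 listed, 5 were higher past 2-fold at day 7 and 6 at day 42, none was lower, and the list medians were 1.83 and 1.61. Over all counted genes 6.16% and 6.52% were higher. Selp, or P-selectin, which lets leukocytes roll, stood at 562 CPM on day 0, 3051 on day 7 and 1735 on day 42. The counting intervals of these values, 493 to 638, 2982 to 3121 and 1604 to 1874, did not overlap. Ackr1, the atypical chemokine receptor that marks small veins, stood at 135 CPM on day 0, 807 on day 7 and 862 on day 42, and its log2 ratios were 2.49 and 2.59. It was the same on the later days within counting error, and both were above day 0. Lrg1, a secreted glycoprotein of venous cells, stood at 296 CPM on day 0, 1080.4 on day 7 and 1439.6 on day 42. Nr2f2, the transcription factor that sets venous identity, stood at 130.5, 309.8 and 359.9 CPM over all endothelial cells, and the carboxypeptidase gene Cpe at 16.6, 95.3 and 150.4. Vwf, the carrier of clotting factor VIII, was at 327, 483 and 978 CPM and past 2-fold at day 42 alone. Ephb4, a venous ephrin receptor, was at 119, 79.1 and 67.1 CPM and in neither comparison past 2-fold. In the cells with a Selp or Ackr1 UMI alone, Nr2f2 was at 475, 390.0 and 429 CPM, with overlapping intervals, so that its log2 ratios turned to -0.28 and -0.14. Vwf was there at 863, 567 and 1143 CPM, and its log2 ratio at day 42 was 0.40, within 2-fold. Lrg1 was there at 1198, 1341 and 1732 CPM, within 2-fold on both days. So were the genes that chose the class, Ackr1 at 615, 1038 and 1076 CPM and Selp at 2558, 3922 and 2165.

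Capillary genes were lower on both later days. Of 8 listed genes that reached 20 CPM, 5 were lower past 2-fold at day 7 and 5 at day 42, against 7.19% and 7.44% of all counted genes, and none was higher. Over all 9 members the medians were -1.78 and -1.40. Tcf15, a transcription factor of fatty acid transporting capillaries, stood at 228 CPM on day 0, 9.73 on day 7 and 5.37 on day 42, with log2 ratios of -3.59 and -3.95. Gpihbp1, which holds lipoprotein lipase on the capillary wall, stood at 370.0 CPM on day 0, 67.3 on day 7 and 34.9 on day 42. Rgcc, a cell cycle regulator used as a capillary marker, stood at 292, 47.9 and 26.9 CPM, and the fatty acid receptor gene Cd36 at 166, 22.7 and 24.2. Each of these 4 genes was highest at day 0 with an interval clear of both later days. In the cells with a Selp or Ackr1 UMI, Gpihbp1 had 1, 44 and 0 UMIs and Rgcc 0, 52 and 2, or 27.1 CPM for Rgcc at day 7, under the 32.4 CPM that 0 UMIs at day 0 allow. Cd300lg, a lipid-binding receptor of small vessels, was at 256, 67.3 and 150.4 CPM and so past 2-fold at day 7 but not at day 42. Fabp4 was the reverse, with a log2 ratio of -0.92 at day 7 and -1.40 at day 42. Meox2, at 47.4, 37.7 and 51 CPM, was past 2-fold on neither day.

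**Figure D2:**
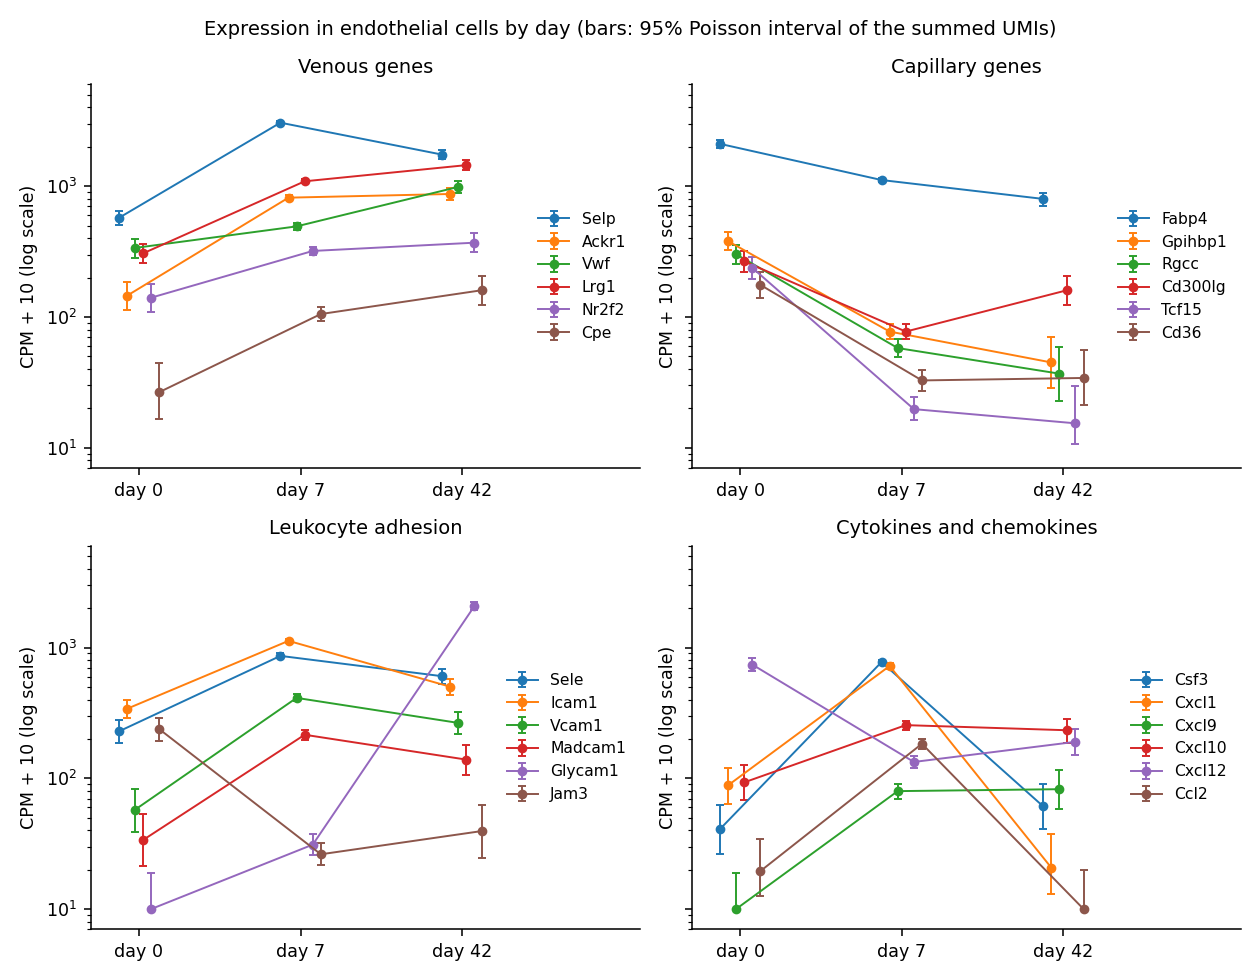
Levels of venous, capillary, leukocyte adhesion and cytokine genes in endothelial cells by day, as CPM plus 10 on a log axis. Points are the 3 libraries, lines join the days, and bars are exact 95% Poisson intervals of the summed UMIs. Selp lies at 562, 3051 and 1735 CPM, Tcf15 runs the other way from 228 to 9.73 and 5.37 CPM, and Glycam1 climbs from 0 to 2060 CPM at day 42.

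The shares of cells with venous and with capillary genes differed between days. At day 0, 20 of 100 cells had a UMI of Selp or Ackr1 and none of Rgcc, Gpihbp1, Cd36 or Tcf15, 55 had the capillary genes alone, 4 had both and 21 neither. At day 7 the numbers were 184, 31, 48 and 49 of 312 cells. At day 42 they were 88, 8, 5 and 21 of 122 cells. Thus 4 of the 59 cells with a capillary UMI also held a venous one at day 0, and 48 of the 79 at day 7. Thinned to 1000 UMIs, these were 1 of 40 and 10 of 35. Any Selp or Ackr1 UMI was thus found on days 0, 7 and 42 in 24% (16.02 to 33.6), 74.4% (69.1 to 79.1) and 76.2% (67.7 to 83.5) of cells. Any capillary UMI was found in 59% (48.7 to 68.7), 25.3% (20.6 to 30.5) and 10.7% (5.8 to 17.5). Detection depends on depth, so each cell was also thinned to 1000 UMIs, which left out 4, 13 and 18 shallower cells. The venous share was then 19.8%, 68.6% and 68.3%, and the capillary share 41.7%, 11.7% and 6.73%. In keratinocytes, of median depths of 9168, 11481 and 6542 UMIs, a Selp or Ackr1 UMI was found unthinned in 0.151%, 4.17% and 0.188% of cells, below the endothelial share of each day. Rgcc, however, was found in 20.8%, 17.4% and 5.36% of keratinocytes against 33%, 14.7% and 4.1% of endothelial cells, so on days 7 and 42 its unthinned endothelial share was no higher than this background. Without Rgcc, a UMI of Gpihbp1, Cd36 or Tcf15 was found in 57% (46.7 to 66.9), 17.9% (13.9 to 22.7) and 8.2% (4.0 to 14.6) of endothelial cells, and in 0.754%, 2.63% and 0.125% of keratinocytes. Thinned, the endothelial shares were 36.5%, 8.7% and 5.77%. Of the cells with these 3 genes, 4 of 57, 30 of 56 and 4 of 10 also held Selp or Ackr1, and thinned 1 of 35, 7 of 26 and 2 of 6. In sums over all endothelial cells, fewer cells of a kind and less of its RNA per cell cannot be told apart.

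**Figure D3:**
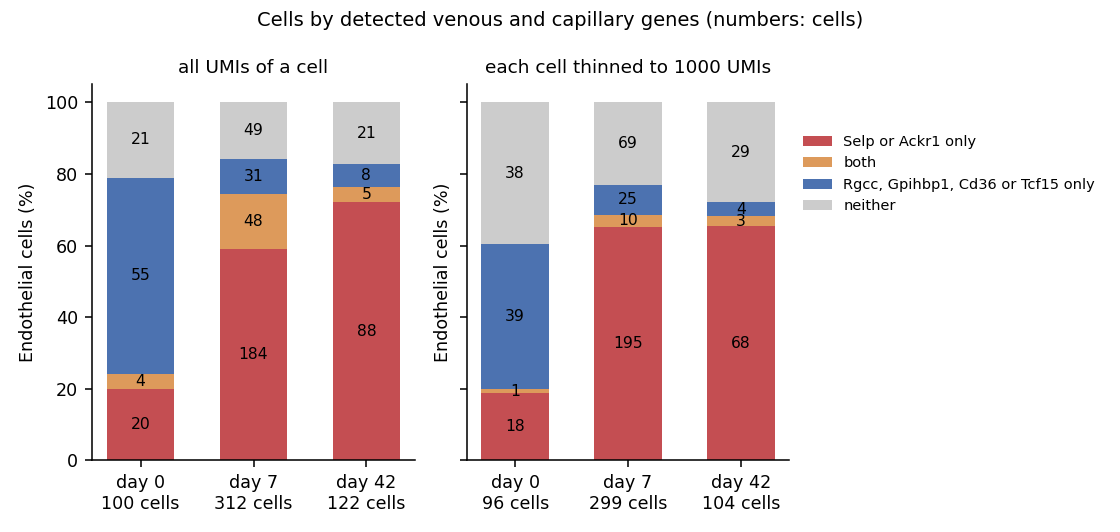
Endothelial cells of each day by whether they held a UMI of the venous genes Selp or Ackr1, of the capillary genes Rgcc, Gpihbp1, Cd36 or Tcf15, of both or of neither, with all UMIs (left) and with each cell thinned to 1000 UMIs (right). Bars are percentages of cells and the numbers inside count cells. Cells with capillary genes alone are the largest class at day 0, with 55 of 100 cells, and cells with venous genes alone at days 7 and 42, with 184 of 312 and 88 of 122.

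Selp and Ackr1 themselves differed between days, so a split by their UMIs cannot separate the mix of cells from the level per cell. As a description, levels were also taken within the 24, 232 and 93 cells that held a Selp or Ackr1 UMI. Of these, 0, 15 and 9 held exactly 1 such UMI. E-selectin, Sele, was 993, 1094 and 741 CPM within them, against 218, 853 and 594 CPM over all endothelial cells. The day 0 and day 7 intervals overlapped within this class, at 800.4 to 1218 and 1047 to 1142. The day 42 interval, 646 to 845, lay below that of day 7 but overlapped that of day 0, and the log2 ratio of day 42 to day 0 turned from 1.40 over all endothelial cells to -0.42. Lrg1 was 1198, 1341 and 1732 CPM. Icam1 was 734, 1394 and 573 CPM within these cells, and Csf3 140.3, 976 and 63.7, which made them highest at day 7 by both measures. The cells without a Selp or Ackr1 UMI held little Sele, at 0, 9.13 and 0 CPM, and little Csf3, at 0, 21.9 and 0. Of 119 genes named by size or listed that were past 2-fold at day 7 over all endothelial cells, 64 were past 2-fold in the same direction within the cells with Selp or Ackr1. At day 42 the number was 47 of 102. The share of all genes past 2-fold within this class was not taken, so these counts have no background. The class also held 1918119 of the 2465781 endothelial UMIs at day 7 and 298420 of 372324 at day 42, so part of the agreement was built in. The day 0 values within this class rest on 92660 UMIs.

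**Figure D4:**
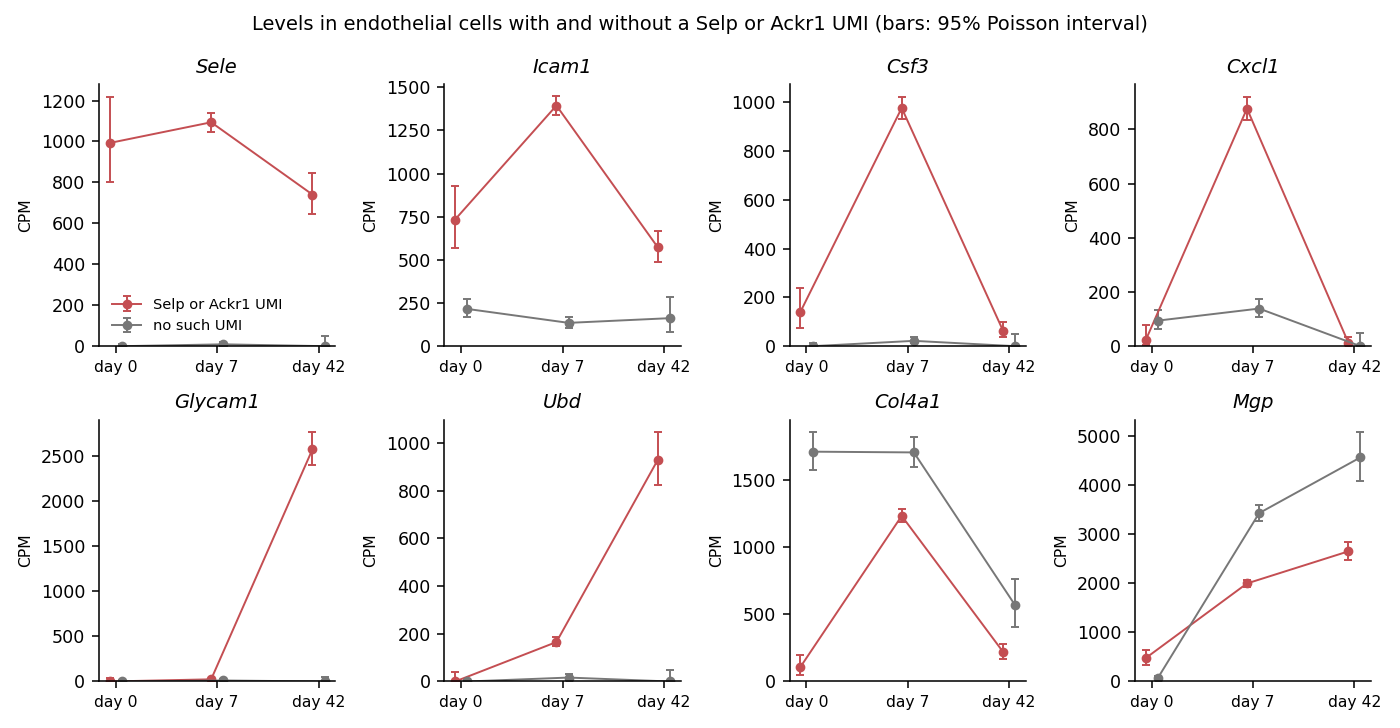
Levels in CPM of 8 genes by day in endothelial cells with a Selp or Ackr1 UMI (red) and without one (grey). Points are the libraries and bars exact 95% Poisson intervals. The Sele intervals of days 0 and 7 overlap within the red class, and that of day 42 overlaps day 0 but lies below day 7, Csf3 and Cxcl1 peak there at day 7, with 976 and 876 CPM, and Glycam1 and Ubd are highest there at day 42, with 2570 and 928 CPM.

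The leukocyte adhesion genes were split between more and less abundant members. Of 15 listed, 7 were higher past 2-fold and 2 lower at day 7, and 6 higher and 2 lower at day 42, with medians of 0.42 and 0.33. Vcam1, the ligand of the integrin α4β1, stood at 47.4 CPM on day 0, 402 on day 7 and 255 on day 42. Madcam1 stood at 23.7 CPM on day 0, 205 on day 7 and 129 on day 42, with counting intervals of 11.4 to 43.6, 188 to 224 and 95.1 to 171. Over all endothelial cells both were highest at day 7 and above day 0 at day 42. Within the cells with a Selp or Ackr1 UMI, Vcam1 stood at 162, 481 and 292 CPM, and Madcam1 at 108, 263 and 161. Their log2 ratios there were 1.51 and 1.21 at day 7. At day 42 they were 0.81 and 0.53, short of 2-fold, and the day 42 intervals of both genes overlapped those of day 0. Icam1, the ligand of the leukocyte integrin LFA-1, stood at 329.7 CPM on day 0, 1114 on day 7 and 492 on day 42, so that its log2 ratio was 1.73 at day 7 and 0.56 at day 42. Jam3, a junctional adhesion molecule, ran the other way at 228, 16.2 and 29.5 CPM, as did the sialomucin gene Podxl at 740.1, 155 and 228. Pecam1 and Icam2, both present on resting endothelium, were within 2-fold on both days.

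At day 42 a group of cells carried Glycam1 at a very high level. This gene (chromosome 15, 103562759 to 103565081 in GRCm38) had 0 UMIs in 100 cells at day 0, which allows a level of up to 7.12 CPM, 52 UMIs in 18 of 312 cells at day 7 and 767 UMIs in 33 of 122 cells at day 42. Its level at day 42 was 2060.0 CPM (1917 to 2211), at least 289-fold higher than at day 0 by the floor of 3 counts per library. The 10 cells with most of it held 75% of its UMIs. It was the highest of all log2 ratios at day 42 among the genes named by size, at 7.69. All 33 of these cells held Selp, 26 held Ackr1, 8 held Madcam1 and none held Rgcc or Gpihbp1. Of the other 89 day 42 cells 55 held Selp and 11 Madcam1. Ubd, a ubiquitin-like modifier switched on by inflammatory cytokines, was found in 28 of the 33 cells and in 21 of the 89, and Stra6, a retinol receptor, in 15 and 13. Serpina1e, a protease inhibitor of the α1-antitrypsin family, was found in 11 of the 33 cells and in 0 of the 89, which allows a share of cells with a UMI, not of cells expressing the gene, of up to 3.37%. The median depth was 2911 UMIs with Glycam1 and 2378 without. Sele was found in 17 of the 33 cells and 40 of the 89, and Vcam1 in 11 and 23. By level Sele stood at 399 CPM in the cells with Glycam1 and 695 in those without, and Vcam1 at 133 and 319.

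Over all endothelial cells Ubd stood at 0 CPM on day 0, 132 on day 7 and 744 on day 42, and Serpina1e at 0 CPM at days 0 and 7 and 167 at day 42. Serpina1e belongs to a family of near-identical genes, so the member named is uncertain. Ubd was found in 0, 53 and 49 cells, and by the floor of 3 counts its level was at least 18.6-fold and 105-fold higher than at day 0. The cells in which Madcam1 was found at day 7, 83 of 312, overlapped with the Ubd cells there: Ubd was in 33 of the 83 and in 20 of the other 229. Selp was in 82 of the 83 and Ackr1 in 79, although these cells were also deeper, with a median of 8550 UMIs against 5429.

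Cytokine and chemokine genes divided by day. The neutrophil markers were also highest at day 7, at 2866 CPM, and their part in these values was not tested. Of 12 listed genes that reached 20 CPM, 6 were higher past 2-fold at day 7 and 2 lower, and of 11 at day 42, 2 were higher and 4 lower. Over all members the list median at day 7 was 0.75. It was 0.59 in the lymphatic cells, 1.06 in the fibroblasts and -0.04 in all other cells together. Csf3, or G-CSF, the growth factor that drives the making of neutrophils, had the highest log2 ratio at day 7 of the genes named by size, 4.24. It stood at 30.8 CPM on day 0, 764 on day 7 and 51 on day 42 and was found in 2, 145 and 8 cells. At day 7, 139 of the 145 cells with Csf3 held Selp, against 87 of the 167 without, at medians of 8340 and 4598 UMIs. Cxcl1, which draws neutrophils through CXCR2, stood at 78.3 CPM on day 0, 713 on day 7 and 10.7 on day 42, and its day 42 level lay below that of day 0. Its relative Cxcl2 stood at 19, 139.5 and 21.5 CPM, and in all other cells together it was higher at day 7 as well, by 4.78 on the log2 scale. Ccl2, which draws monocytes, stood at 9.49, 174 and 0 CPM, and 10 cells held 98.1% of its UMIs at day 7. Cxcl9 and Cxcl10, which draw T cells through CXCR3, were both higher on each later day. Cxcl9 stood at 0, 69.8 and 72.5 CPM and Cxcl10 at 83, 245 and 223. Cxcl12, a chemokine of resting vessels, stood at 731 CPM on day 0, 123 on day 7 and 180.0 on day 42. In the cells with a Selp or Ackr1 UMI it was at 140.3, 16.7 and 63.7 CPM, and in the others at 897, 497 and 649. Its day 0 and day 42 intervals overlapped in each class. Cx3cl1, which is held on the cell membrane, stood at 47.4, 11.4 and 5.37 CPM.

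Of 17 listed targets of NF-κB, the transcription factor that inflammatory signals switch on, 6 were higher past 2-fold at day 7, 11 were within 2-fold and none was lower, with a median of 0.92. The median of the same list was 0.63 in the lymphatic cells, 0.58 in the fibroblasts and 0.34 in all other cells. At day 42, 3 of 16 were higher and 1 lower, with a median of -0.09, and at day 42 against day 7, 8 of 17 were lower, against 3.37% of all counted genes. Nfkbia, the inhibitor that NF-κB itself induces, stood at 1084 CPM on day 0, 2163 on day 7 and 1072 on day 42, a log2 ratio of 0.99 at day 7. Tnip1, which restrains the same pathway, stood at 14.2 CPM on day 0, 124 on day 7 and 48.3 on day 42. Tnfaip3, or A20, was at 128, 251 and 94 CPM. This list shares Icam1, Vcam1, Sele, Ccl2 and Cxcl1 with the lists above. Promoters of 220 of the 296 listed and named genes were held by the RefSeq table (GRCm38.p6), each from 250 bases before the start of transcription to 50 after it. The letters GGGA and TTCC with any 2 bases between them, a core of NF-κB sites, were searched on both strands. They were found for 4 of 12 genes of the NF-κB list and 5 of 10 of the chemokine and cytokine list, against 1.47% of all 32851 promoters. A gene was counted if any of its promoters matched, so the shares of genes and of promoters are not in the same unit. The stretches around the match, in capitals, are shown for 4 genes that were higher at day 7, of which Nfkbia was just short of 2-fold, with bases read on the strand of the gene and only before its start.
Cxcl1 (chr5:90891159-90891199, plus strand): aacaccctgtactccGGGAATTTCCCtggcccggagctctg
Nfkbia (chr12:55492652-55492691, minus strand): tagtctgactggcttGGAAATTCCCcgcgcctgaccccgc
Madcam1 (chr10:79664474-79664513, plus strand): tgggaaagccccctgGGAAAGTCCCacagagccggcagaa
Cxcl10 (chr5:92349024-92349063, minus strand): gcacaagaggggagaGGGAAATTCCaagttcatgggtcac

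The match lay 71 bases before the start in Cxcl1, where matches on the 2 strands overlap, 29 in Nfkbia, 70 in Madcam1 and 159 in Cxcl10. No such letters lay in the windows of Selp, Sele, Icam1, Glycam1, Ackr1 and Ubd. A match describes the letters alone and says nothing of binding in these cells.

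Of 27 listed interferon response genes that reached 20 CPM, 11 were lower past 2-fold at day 7, 2 higher and 14 within 2-fold, with a median of -0.65 over all 29 members. At day 42, 8 were lower, 2 higher and 17 within 2-fold, with a median of -0.44. The 2 higher genes on both days were Cxcl9 and Cxcl10. Irf1, a transcription factor of the interferon-γ response, stood at 474 CPM on day 0, 173 on day 7 and 167 on day 42. Isg15, a ubiquitin-like antiviral modifier, stood at 147 CPM on day 0, 51.1 on day 7 and 43 on day 42, and Rsad2, an antiviral enzyme, at 56.9, 6.08 and 10.7 CPM. Ifit1 stood at 42.7, 11.4 and 5.37 CPM and Oasl2 at 54.6, 16.6 and 13.4, both sensors or blockers of viral RNA. Without its 10 richest cells the log2 ratio of Ifit1 at day 7 turned to 0.17. Among the cells with a Selp or Ackr1 UMI, Ifit1, Ifit2, Ifit3, Oasl2 and Rsad2 had 0 UMIs at day 0, which allows up to 32.4 CPM. Their later levels there, between 0 and 15.1 CPM, were under that limit, so no direction could be read within this class. Rtp4 had 1 UMI there at day 0, and its log2 ratio at day 7 was 0.71. Within the cells with a Selp or Ackr1 UMI, Isg15 stood at 43.2, 50.6 and 40.2 CPM, and its intervals overlapped on all days. In the cells without such a UMI it stood at 176, 53 and 54.1. Irf1 was 335, 189.8 and 168 CPM within the first class and so highest at day 0 there too. Ifitm3, a membrane protein that blocks virus entry, ran against the list at 2244, 3631 and 4381 CPM. In the lymphatic cells the list medians were 0.28 and 0.53. The letters GAAA repeated after any 2 bases, a core of the interferon-stimulated response element, were searched on both strands. They were found for 15 of 24 genes of the list, each with a match in any of its promoters, against 3.44% of all promoters. Stretches of 3 genes that were lower than at day 0 are shown, with the matches in capitals.
Isg15 (chr4:156200860-156200911, minus strand): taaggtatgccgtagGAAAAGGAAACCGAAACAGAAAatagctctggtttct
Ifit3 (chr19:34583358-34583431, plus strand): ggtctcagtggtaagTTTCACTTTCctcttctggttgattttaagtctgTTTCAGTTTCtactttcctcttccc
Rsad2 (chr12:26456548-26456587, minus strand): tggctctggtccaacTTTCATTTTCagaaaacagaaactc

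Isg15 held 3 overlapping matches between 78 and 66 bases before its start, Ifit3 had 2, at 156 and 122 bases, and Rsad2 had 1 at 120.

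Few MHC class I genes were past 2-fold. Of 16 listed, none was higher at day 7 and 2 of 15 counted were lower. At day 42, 2 of 16 were higher and none lower. Over all counted genes 7.19% were lower at day 7 and 6.52% higher at day 42. The list medians over all members were -0.21 and 0.35. They were 1.13 and 1.26 in the lymphatic cells, and -0.42 and 0.04 in all other cells together. The class I heavy chain gene H2-K1 stood at 1188 CPM on day 0, 1010.2 on day 7 and 1912 on day 42 and H2-D1 at 1084, 1166 and 1947 CPM. B2m, the light chain, stood at 1020.0, 1007 and 1348 CPM. H2-Q7 was past 2-fold at day 42, at 149, 247 and 462 CPM, and so was Nlrc5, which switches class I genes on, at 7.12, 6.89 and 29.5. The H2-Q genes are near-identical copies, so reads may have been shared among them. Within the cells with a Selp or Ackr1 UMI, H2-K1 was 1036, 1045 and 2044 CPM and so also highest at day 42. MHC class II genes were rare. Cd74, the invariant chain, stood at 11.9, 74.2 and 85.9 CPM and H2-Ab1 at 2.37, 30.8 and 37.6.

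Receptors of vessel growth factors were lower for several members. Of 17 listed, 4 were lower past 2-fold at day 7 and 1 higher, and at day 42, 6 of 16 were lower and none higher. The VEGF receptor gene Flt1 stood at 1492 CPM on day 0, 586 on day 7 and 604 on day 42, and the main VEGF receptor, Kdr, at 432, 288 and 212 CPM. The co-receptors Nrp1 and Nrp2 stood at 496, 161 and 183 CPM and 389, 129 and 185 CPM. In the cells with a Selp or Ackr1 UMI, the log2 ratios of Nrp1 turned to 0.30 and 0.26, with overlapping intervals, while those of Nrp2 were -1.69 and -1.14. Those of Flt1 were -0.80 and -0.79 there, within 2-fold. Angpt2, which loosens vessels by acting on the receptor TIE2, was highest at day 7, at 2.37, 61.6 and 16.1 CPM. Aplnr, the receptor of apelin in sprouting vessels, stood at 221 CPM on day 0, 159.8 on day 7 and 13.4 on day 42, so that it was past 2-fold at day 42 alone. Its ligand Apln stood at 92.5, 65.7 and 0 CPM.

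The tip cell and angiogenesis list, which holds genes of sprouting cells, had 3 of 11 genes higher and 3 lower at day 7. At day 42, 6 of 8 were lower and none higher, and against day 7, 8 of 10 were lower. Dll4, the Notch ligand of tip cells and arteries, stood at 287 CPM on day 0, 81.9 on day 7 and 51 on day 42. Esm1, a proteoglycan of tip cells, stood at 90.1, 21.9 and 10.7 CPM, and the netrin receptor gene Unc5b at 78.3, 13.8 and 5.37. Without its 10 richest cells the log2 ratio of Esm1 at day 7 turned to 0.48. Within the cells with a Selp or Ackr1 UMI, Dll4 had 1, 91 and 11 UMIs, or 10.8, 47.4 and 36.9 CPM with overlapping intervals, and its log2 ratios turned to 1.47 and 1.17. Esm1 and Unc5b had 0 UMIs in that class at day 0 and 10 at day 7, or 5.21 CPM, under the limit of 32.4 CPM that day 0 allows. In the cells without such a UMI Dll4 was at 365, 203 and 108 CPM. Pgf, a VEGF relative, was seen mainly at day 7, at 4.74, 49.1 and 0 CPM. Itga5, the fibronectin receptor subunit, was also highest then, at 61.7, 199.5 and 94 CPM. Of the Notch list, 4 of 9 counted genes were lower at day 7 and 3 of 9 at day 42, and none was higher. Notch1 itself stood at 358, 163 and 201 CPM and its target Hes1 at 387, 128 and 236. Hes1 was, in the cells with a Selp or Ackr1 UMI, at 86.3, 118 and 241 CPM, a log2 ratio of 0.41 at day 7. At day 42 it was higher there than at day 0, past 2-fold, while over all endothelial cells it was lower and within 2-fold.

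Of 16 listed basement membrane genes, 4 were higher and 1 lower past 2-fold at day 7. At day 42, 7 were lower, 3 higher and 6 within 2-fold. The medians were -0.08 and -0.95, against -0.73 and -1.20 in all other cells. Col4a1, a chain of the main basement membrane collagen, stood at 1362 CPM on day 0, 1341 on day 7 and 290.1 on day 42, and Col4a2, its partner, at 904, 685 and 212 CPM. Both were within 2-fold of their day 0 level at day 7 and past 2-fold below it at day 42. Within the cells with a Selp or Ackr1 UMI Col4a1 was instead 108, 1236 and 221 CPM, highest at day 7, and in the others 1715, 1709 and 568. Col4a2 was at 108, 637 and 127 CPM in the first class, a log2 ratio of 0.22 at day 42. Hspg2, or perlecan, stood at 667, 463 and 279 CPM, and Sparc, a collagen-binding protein, at 2427, 3013 and 1198. Sparc was at 907, 2721 and 962 CPM in the cells with a Selp or Ackr1 UMI, a log2 ratio of 0.084 at day 42. Sparcl1, its relative, was lower on both days over all endothelial cells, at 1615, 295 and 513 CPM. In the cells with a Selp or Ackr1 UMI it was at 637, 217 and 211 CPM. In the others it was at 1891, 566 and 1732, where the day 0 and day 42 intervals overlapped (1745 to 2046 and 1445 to 2059). Col18a1, from which endostatin is cut, stood at 59.3 CPM on day 0, 717 on day 7 and 255 on day 42. Mgp, matrix Gla protein, an inhibitor of calcification, stood at 159 CPM on day 0, 2312 on day 7 and 3027 on day 42, and was found in 14, 194 and 81 cells. Its level was higher on the later days in cells with a Selp or Ackr1 UMI, at 475, 1995 and 2647 CPM, of which 0%, 15.2% and 4.05% of UMIs were in cells of the authors' cluster 27, described further on. In the cells without a Selp or Ackr1 UMI it was at 69.9, 3425 and 4560.0 CPM, but 20 of 23, 1867 of 1876 and 325 of 337 of these UMIs were in 3, 20 and 8 cells of cluster 27. The other cells without such a UMI held Mgp at 9.33, 21.5 and 245 CPM. Fn1, or fibronectin, stood at 28.5, 178 and 107 CPM, while it was lower in all other cells at day 7, at a log2 ratio of -2.86.

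Genes of clotting and vessel tone were higher for 5 of 13 counted members at day 7 and lower for 2. At day 42, 5 of 12 were higher and 1 was lower. Thbd, or thrombomodulin, which turns thrombin against clotting, was lower on both days at 408 CPM on day 0, 131 on day 7 and 150.4 on day 42. Procr, the receptor of protein C, stood at 49.8, 131 and 148 CPM over all endothelial cells. In the cells with a Selp or Ackr1 UMI it was at 173, 152 and 174 CPM, with log2 ratios of -0.17 and 0.012. Edn1, the vessel constrictor endothelin, stood at 28.5 CPM on day 0, 151 on day 7 and 175 on day 42, and Ptgs2, the inducible cyclooxygenase, at 4.74, 91.2 and 24.2 CPM. Nos3, which makes the dilator nitric oxide, stood at 152, 166 and 83.3 CPM and was past 2-fold on neither day. Among genes that steady flow sustains, Klf2 stood at 1601, 1086 and 1783 CPM and Klf4 at 996, 336 and 755, the latter past 2-fold at day 7 alone. Of this list 3 of 7 were lower at day 7 and 2 at day 42.

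Of 16 counted junction genes 3 were lower past 2-fold and 2 higher at day 7. At day 42, 1 of 15 was lower and 1 higher, near the 7.44% and 6.52% of all counted genes. Cldn5, the tight junction claudin of endothelium, stood at 500.5 CPM on day 0, 216 on day 7 and 282 on day 42. The 3, 22 and 9 cells of the authors' cluster 27, described further on, held 12.3%, 56.6% and 64.8% of its UMIs. In the other 500 cells it was at 447, 99.7 and 107 CPM, lower past 2-fold on both later days. Split instead by a Selp or Ackr1 UMI, it was lower past 2-fold in neither class of cells. Cdh5, the cadherin of endothelial junctions, stood at 712, 763 and 502 CPM and within 2-fold. Of 8 genes of fenestrae and caveolae, 4 were lower at day 7 and 2 at day 42, and none was higher. Cav1, the caveolin that shapes caveolae, stood at 929.8 CPM on day 0, 409.6 on day 7 and 443 on day 42, and Cavin1, its coat protein, at 968, 320.4 and 416 CPM. Plvap was within 2-fold on both days.

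Of the 30 genes of general endothelial identity, 7 were lower past 2-fold at day 7 and 1, Ecscr, was higher. At day 42, 6 were lower and none was higher, and the medians were -0.24 and -0.32. Of all counted genes 7.19% and 7.44% were lower. Podxl, Sox17, Flt1, Sox7 and Adgrl4 were lower on both days, Cldn5 and Ptprb at day 7 and Cd93 at day 42. In the cells with a Selp or Ackr1 UMI, Adgrl4 stayed lower past 2-fold on both days, at -1.23 and -1.99. Podxl (-0.78 and -0.68), Sox17 (-0.72 and -0.57) and Flt1 were within 2-fold there, and Sox7 turned to 0.43 at day 7 and was at -0.45 at day 42. Flt1, a receptor of VEGF, stood at 1492 CPM on day 0, 586 on day 7 and 604 on day 42. Tie1, Tek, Emcn, Esam, Erg and Sox18 were among the genes within 2-fold on both days. Sox17, a transcription factor of arteries, stood at 344, 111 and 137 CPM. Sox7, its relative, stood at 285, 122 and 83.3 CPM, and Cd93, 1 of the markers of the label, at 1233, 729.6 and 411.

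Of 19 listed cell division genes, 10 were higher past 2-fold at day 7 and none lower, with a median of 1.21. At day 42 none of 13 was higher and 6 were lower, and against day 7, 14 of 19 were lower. Ube2c, a ubiquitin enzyme of mitosis, stood at 4.74 CPM on day 0, 109 on day 7 and 0 on day 42. Top2a, which untangles DNA, stood at 40.3, 114 and 10.7 CPM, and Mki67, a general mark of dividing cells, at 40.3, 110.3 and 24.2. In the cells with a Selp or Ackr1 UMI, Top2a had 0, 221 and 2 UMIs and Mki67 0, 248 and 9. Mki67 was found in 4 of 100, 60 of 312 and 4 of 122 cells. After thinning to 1000 UMIs its share was 2.08%, 6.69% and 0.962%. Keratinocytes, which themselves divide, held it in 22.1%, 35.5% and 22.6% of cells and thinned in 9.08%, 10.2% and 7.74%, above the endothelial share on every day, so these shares are not read as endothelial division. Genes of DNA replication were within 2-fold at day 7, with log2 ratios of -0.17 for Mcm3, -0.05 for Mcm5, -0.11 for Mcm6, -0.18 for Pcna and 0.39 for Tyms. At day 42 Mcm5, Pcna and Tyms were lower past 2-fold, at -1.26, -1.38 and -1.25. As a mean over cells of CPM per cell, however, Mcm5 turned to 0.34, and within the cells with a Selp or Ackr1 UMI Tyms turned to 0.083, with 2 UMIs there at day 0. The rest of the library had a median of 0.55 for this list at day 7, and the lymphatic cells 0.98.

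Immediate early genes, which cells switch on within minutes of a stimulus, were on the whole highest at day 0. Of 16 listed, 9 were lower past 2-fold at day 7 and 3 at day 42, and none was higher, with medians of -1.17 and -0.74. Egr1 stood at 4217 CPM on day 0, 733 on day 7 and 991 on day 42, Fos at 3831, 1231 and 2307 CPM and Jun at 2213, 647 and 1184. The heat shock genes Hspa8 and Hsp90aa1 were within 2-fold, at 2011, 2138 and 1988 CPM and 455, 419 and 376 CPM. In all other cells together the median of the list was -0.97 at day 7, and in the lymphatic cells it was 0.98. Of the glycolysis genes 2 of 14 were higher at day 7, Pkm and Gapdh, which stood at 315, 761 and 534 CPM and 766, 1618 and 943 CPM, and none at day 42. Egln3 was lower on both days, at 45.1, 15 and 8.06 CPM.

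A small set of endothelial cells stood apart in the authors' clusters. Of the 534 cells, 500 were in cluster 16 and 34 in cluster 27, which held 3, 22 and 9 cells on days 0, 7 and 42. Its leading genes over cluster 16, which describe the clustering and are no test, were Igfbp4, Sema3g, Gja5, Fbln5, Serpinf1, Gja4, Lox, Egfl8, Eln and Gkn3. Sema3g stood at 695 CPM in cluster 27 against 6.5 in cluster 16, and the gap junction gene Gja5 at 438 against 2.28. Eln, or elastin, stood at 2079 against 109. Of the listed arterial genes, Gja5, Sema3g, Bmx and Fbln5 had 90.5%, 89.2%, 72.1% and 69.5% of their day 7 UMIs in the 22 cells of that day. The shares were lower for Gja4, Hey1, Efnb2, Sox17 and Dll4, at 63.1%, 48.1%, 37.4%, 32.97% and 26.7%. The arterial list as a whole had 3 of 9 genes higher and 2 lower at day 7, and 2 of 7 higher and 3 lower at day 42, with medians of 0.03 and 0.22. Over all 9 members the day 42 median was 0.11, and it changed sign as a mean per cell (-0.047), with a filter on cells (-0.046), thinned (-0.087) and in cluster 16 alone (-1.19). Over all endothelial cells Fbln5 stood at 19, 169 and 99.4 CPM and Gja5 at 2.37, 30.01 and 32.2, both higher past 2-fold on both later days. In cluster 16 alone Gja5 was at 0, 3.02 and 0 CPM, past 2-fold on neither day. Fbln5 was there at 19.3, 54.8 and 37.6 CPM, with log2 ratios of 1.14 at day 7 and 0.70 at day 42, and its day 42 ratio was -0.60 in the cells with a Selp or Ackr1 UMI. The cells of cluster 27 were 3%, 7.05% and 7.38% of the endothelial cells (0.623 to 8.52, 4.47 to 10.5 and 3.43 to 13.5).

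**Figure D5:**
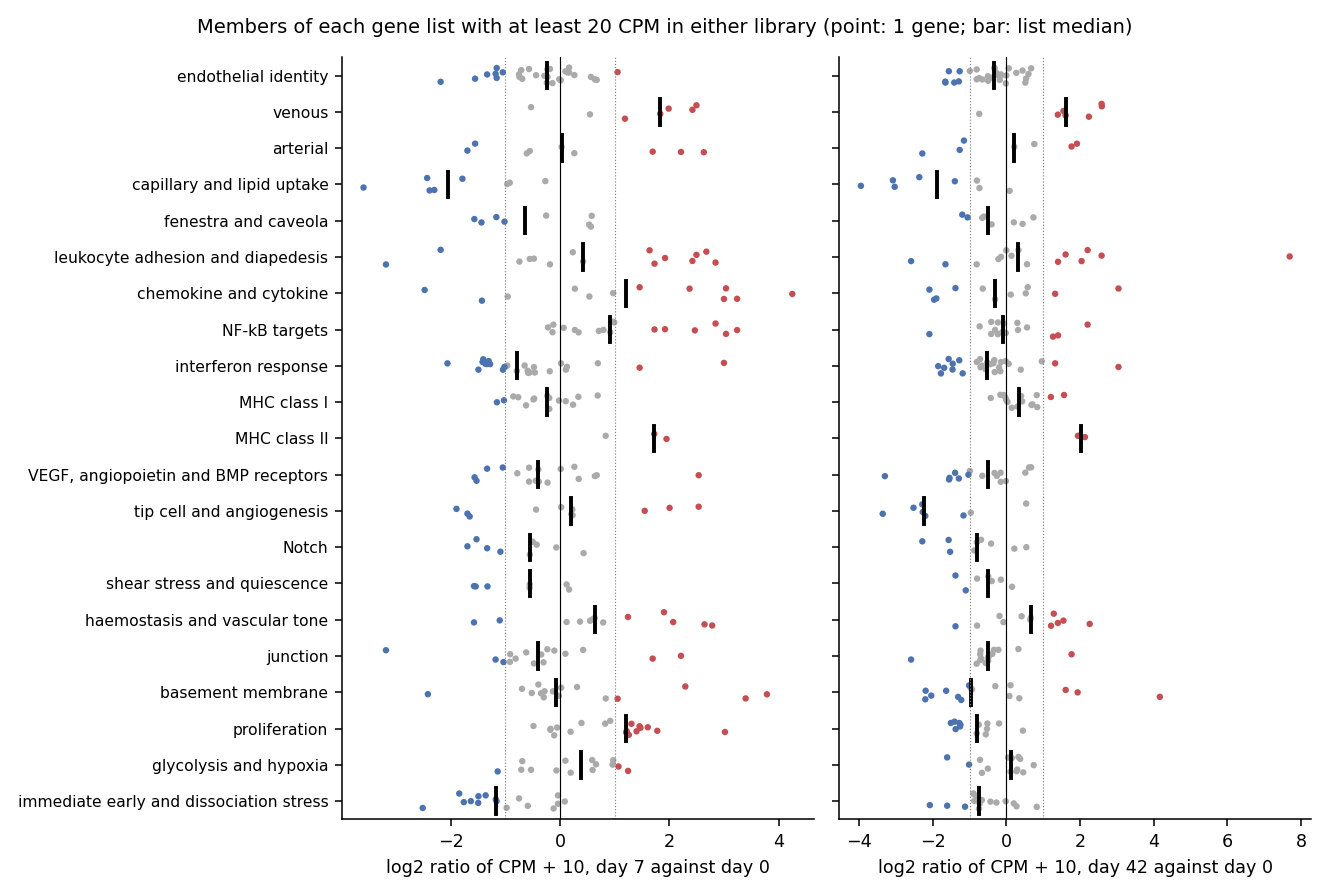
Log2 ratios of the members of 21 gene lists in endothelial cells at day 7 (left) and day 42 (right) against day 0, for genes that reached 20 CPM in either of the libraries compared. Each point is 1 gene, red and blue mark genes past 2-fold, dotted lines stand at 2-fold and black bars at the list medians. The venous list lies to the right on both days, with medians of 1.83 and 1.61, and the capillary list to the left, while the proliferation list moves from 1.21 to -0.81.

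Genes were named by size alone separately for day 7 and for day 42, each against the same day 0 library. A gene named for day 42 was high then by the rule, so its level then is no separate finding. At day 7, 166 of 1870 genes with at least 100 CPM were higher past 2-fold and 230 lower. Of the higher genes 68 were below the level of all other cells together and are not described, with S100a9, S100a8, Retnlg, Wfdc17 and Lcn2 first. At day 42 the numbers were 143 and 180 of 1819, and 57 of the higher genes fell below the other cells, with Calcb, Krt7, S100a9, Ltf and Krt6a first. The keratinocyte markers were highest then, at 4281 CPM. Serpinb1a, an inhibitor of neutrophil proteases, stood at 28.5 CPM on day 0, 394 on day 7 and 902 on day 42. Fjx1, the mouse form of four-jointed, stood at 2.37 CPM on day 0, 182 on day 7 and 258 on day 42, and Tgfbi, a matrix protein that TGF-β induces, at 7.12, 174 and 231 CPM. Bgn, the proteoglycan biglycan, stood at 42.7, 447 and 384 CPM, and the aldo-keto reductase gene Akr1b8 at 9.49, 132 and 110.1. Ehd3, which acts in the recycling of membrane, stood at 56.9, 374 and 679.5 CPM. The complement proteases C1s1 and C1ra stood at 2.37, 37.7 and 188 CPM and 4.74, 38.9 and 121 CPM, and Stra6 at 2.37, 17 and 145. Gal, which encodes the neuropeptide galanin, was at 0, 112 and 0 CPM, and all of its day 7 UMIs lay in 9 cells.

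The genes named for the lowest log2 ratios against day 0 were of several kinds. Cyp26b1, which breaks down retinoic acid, stood at 187 CPM on day 0, 7.71 on day 7 and 2.69 on day 42. Itih5, a hyaluronan-binding protein, stood at 491 CPM on day 0, 20.7 on day 7 and 45.7 on day 42. Fmo2, a flavin monooxygenase, stood at 541, 36.1 and 199 CPM and Pltp, the phospholipid transfer protein, at 446, 38.1 and 201, both with part of the level back at day 42. Gas6, a ligand of TAM receptors, stood at 242, 30.8 and 88.6 CPM, Clic5 at 270.4, 23.9 and 45.7 and the clock gene Dbp at 168, 19.5 and 83.3. Of these, Itih5, Fmo2, Gas6, Clic5 and Dbp were also lower past 2-fold in all other cells at day 7, at log2 ratios of -2.80, -2.77, -1.64, -1.30 and -1.03. The immediate early genes Egr3 and Nr4a2 stood at 586, 73.8 and 121 CPM and 382, 56 and 113 CPM. At day 42 the list further held Nes, or nestin, at 126, 31.6 and 2.69 CPM, and the endothelin receptor gene Ednrb at 145, 23.1 and 5.37. Bcl6b, a transcriptional repressor, stood at 171, 53.9 and 10.7 CPM, Rbp7, a retinol-binding protein, at 102, 22.7 and 5.37, and Trp53i11 at 315, 70.6 and 34.9.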

How the data were processed

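The 3 single-cell libraries (10x Genomics, 3′) were aligned to mm10 with Cell Ranger 3.0.2, per the submitters' processing notes. The deposited matrix held counts, UMIs per gene and cell, and the deposited cell table each cell's library, size factor, cluster and annotation. The size factors, a ratio of each cell's total, were made by the authors and not used here. In this work UMIs of endothelial cells were summed per library with Python 3.11.15, numpy 2.4.6, pandas 2.3.3 and scipy 1.17.1. Sums were scaled to CPM and compared as described above, and the counting was tested on simulated data. Doublets were scored with Scrublet in scanpy 1.11.5. It called 420, 0 and 279 cells, so that it did not work at day 7, and no cell was left out. Gene positions were those of GENCODE M21 (GRCm38). Genes were named by 3 rules: the 12 highest and 12 lowest ratios at 100 CPM or more (no lower than in all other cells, and without mitochondrial, ribosomal protein, haemoglobin, immunoglobulin and sex-linked genes), the 20 genes furthest above other annotations, and members of gene lists. The members and lists were chosen with earlier results of these data known. The search also covered ETS (ACCGGAAG) and KLF (GGGTGGGG) letters, held by 2.30% and 9.99% of promoters. The values of 1 listed gene are not reported here. No Ccl21a value is given because 2 gene IDs share that symbol.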

Additional observations from a re-analysis of the deposited data

Results flagged for a closer look

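Some genes named by size had log2 ratios of opposite sign, past 2-fold, in the blood endothelial cells and in the cells named lymphatics, the other endothelial type in these libraries. These differences were not tested, since each day was 1 library, and only 63 lymphatic cells were present at day 0. At day 7 against day 0, the log2 ratio in blood endothelial cells exceeded that in lymphatic cells by 5.40 for Tgfbi (3.43 against -1.97) and by 4.97 for Col18a1 (3.39 against -1.58). The reverse held for the immediate early genes Egr1, with a difference of -3.80 (-2.51 against 1.29), and Egr3, with -3.93 (-2.83 against 1.10). Lymphatic Egr3 had 0 UMIs at day 0, which allows 14.7 CPM, and 9 at day 7, or 11.4 CPM, so its lymphatic direction cannot be read. At day 42 against day 0 the difference was 5.2 for Tgfbi (3.82 against -1.38). It was -5.34 for Ednrb (-3.33 against 2.01), -4.36 for Trp53i11 (-2.86 against 1.5) and -4.15 for Bcl6b (-3.12 against 1.03). The lymphatic values of these 3 genes rest on 4 and 19 UMIs for Ednrb on days 0 and 42, 2 and 8 for Trp53i11 and 3 and 7 for Bcl6b. Their counting intervals overlapped for Trp53i11 (1.19 to 35.4 and 19.9 to 90.8 CPM) and Bcl6b (3.03 to 42.9 and 16.2 to 83.1 CPM), but not for Ednrb (5.34 to 50.1 and 65.9 to 170.9 CPM).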

How the results depend on the processing

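Depth limits the day 0 and day 42 values most, where 3 counts stand for 7.12 and 8.06 CPM. No paired analysis was possible because each day was 1 library. The day 0 share of endothelial cells was 1.16% with a filter on cells (at least 1000 UMIs and 500 genes, at most 20% mitochondrial), and the shares were 6.25%, 38.1% and 28.5% among endothelial, lymphatic and fibroblast cells. With 1 CPM added in place of 10, with cells thinned to 1000 UMIs, and with a minimum of 50 CPM, the genes higher at day 7 against day 0 numbered 666, 1043 and 251 against 436. The lower ones numbered 831 and 1110 in the first 2 settings against 509. For day 42 against day 0 the numbers were 741, 1008 and 254 against 469 higher, and 835, 1448 and 321 against 535 lower. For day 42 against day 7 they were 472, 684 and 139 against 237 higher, and 418, 865 and 111 against 236 lower. Listed genes higher at day 42 against day 7 numbered 7, but 14 without called doublets, 11 thinned, 13 without the cells richest in other cell types' markers and 12 without the 5% highest doublet scores.

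Of 119 named genes past 2-fold at day 7, between 90 and 119 stayed past it in the same direction under every setting other than the Selp or Ackr1 cells, and of 102 at day 42, between 83 and 102. Settings that removed the top doublet scores, kept cluster 16 alone or kept cells with Selp or Ackr1, and the capillary class without Rgcc, were chosen after seeing the data. The arterial list median at day 42 was 0.11 over all members and turned to -0.047 as a mean per cell, -0.046 with the cell filter, -0.087 thinned and -1.19 in cluster 16. The MHC class II median at day 7 turned from 0.70 to -0.065, and that of glycolysis at day 42 from 0.11 to -0.15, both without the top doublet scores; the latter was -0.095 without called doublets and -0.033 thinned. Without the 10 cells richest in the gene, Esm1 and Ifit1 turned to 0.48 and 0.17 at day 7. Irgm1 at day 7 and Ptgs2 at day 42 turned to 0.12 and -0.058 thinned, and Mcm5 at day 42 to 0.34 as a mean per cell. Within cells with a Selp or Ackr1 UMI, log2 ratios of opposite sign at day 7 were Dll4 1.47, Esm1 0.61, Gpihbp1 0.66, Hes1 0.41, Ifit1 0.75, Ifit2 0.39, Ifit3 0.50, Isg15 0.19, Jag2 0.014, Nr2f2 -0.28, Nrp1 0.30, Oasl2 1.33, Procr -0.17, Rgcc 1.89, Rsad2 0.14, Rtp4 0.71, Sox7 0.43 and Unc5b 0.61. At day 42 they were Cdk1 0.42, Col4a1 0.97, Col4a2 0.22, Dll4 1.17, Fbln5 -0.60, Ifit1 0.74, Irgm1 0.22, Nr2f2 -0.14, Nrp1 0.26, Oasl2 1.0, Pdgfb 0.20, Rgcc 0.74, Rsad2 0.42, Sele -0.42, Selp -0.24, Sparc 0.084, Stmn1 0.22, Top2a 0.74 and Tyms 0.083. Esm1, Unc5b, Ifit1, Ifit2, Ifit3, Oasl2 and Rsad2 had 0 UMIs in that class at day 0 and later levels under the limit of 32.4 CPM this allows, so the sign of their ratios cannot be read. The same held there for Rgcc on both days and for Top2a and Cdk1 at day 42. Selp was itself used to choose that class, and the cause of the other changes was not tested.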
